A study of Homo sapiens with 15 samples.

Results

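Among the chromatin loops that LNCaP cells carried through acetylated histone H3, 6759 lost contact between vehicle and 16 h of androgen to a level at most 0.5 times the starting level. They were the loops of the H3K27ac set that had at least 10 read pairs in the vehicle sample (0 m) and met that limit at 16 h. They made up 13.8% of the 48967 H3K27ac loops with at least 10 read pairs at 0 m, and were taken from 296326 loops in the set. The other 42208 loops with at least 10 read pairs at 0 m served as the comparison. They were selected on the H3K27ac values at 0 m and 16 h, so the fall between these time points is a description and was not tested.

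LNCaP is an established human prostate cancer cell line that depends on the androgen receptor. The cells were kept for 3 days in medium with charcoal-stripped serum, which holds little steroid, and then received 10 nM dihydrotestosterone (DHT), a potent androgen, for 4 lengths of time (30 m, 4 h, 16 h and 72 h) or ethanol vehicle (0 m). HiChIP joins DNA ends that lie close together in fixed nuclei and pulls down the joined fragments with an antibody, here against H3K27ac (10 samples, 2 per time point) or H3K4me3 (5 samples, 1 per time point). One value of normalized contact was deposited for each loop, mark and time point, and whether both H3K27ac replicates entered it is not stated in the sources used here. Without a replicate error no p-value is given, and all intervals are 95% intervals that cover counting error only.

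H3K27ac marks active enhancers and promoters, and H3K4me3 marks active promoters. The androgen receptor enters the nucleus when DHT binds it, and recognizes a pair of short inverted repeats in DNA, mostly at enhancers that the forkhead factor FOXA1 has opened. It raises many genes of the secretory prostate epithelium, such as KLK3, which encodes prostate-specific antigen, and lowers others that are active when androgen is scarce, such as UGT2B15 and UGT2B17, whose products attach glucuronic acid to androgens. A loop in HiChIP is a pair of anchors that are joined more often than their distance predicts, and the signal reflects both how often the anchors met and how much of the mark they carried.

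The anchors that joined the most of these loops lay in AT-rich introns and gene deserts. The anchor with the most lay in an intron of NAALADL2 on chromosome 3, and others with many lay in intergenic stretches of chromosomes 10, 12 and 21. To show this sequence, 121 bases of the hg19 (GRCh37) plus strand are printed from the 5 kb bin around each of these 4 anchors, centred on the match to the forkhead letters TGTTTAC (either strand) nearest to the middle of the bin. The match is in capitals. The 4 are among the main anchors of the 10 largest loci that had such a match. Those without one were passed over, among them an intergenic anchor of chromosome 10 with 13 halved loops and one of chromosome 2 with 11. The main anchor in CNBD1, with 17 halved loops, and that of the MYC region, with 9, also had a match and are not printed.
NAALADL2 intron, chr3:175206391-175206511: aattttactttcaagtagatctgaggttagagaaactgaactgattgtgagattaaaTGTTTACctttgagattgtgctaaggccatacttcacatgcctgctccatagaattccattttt
Intergenic, nearest coding start MBL2, chr10:55437454-55437574: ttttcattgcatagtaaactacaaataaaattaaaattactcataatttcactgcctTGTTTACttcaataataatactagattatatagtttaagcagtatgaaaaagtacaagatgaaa
Intergenic, nearest coding start ATP2B1, chr12:90341959-90342079: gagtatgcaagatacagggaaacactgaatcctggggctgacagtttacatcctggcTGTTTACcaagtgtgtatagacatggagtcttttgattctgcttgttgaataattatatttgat
Intergenic, nearest coding start N6AMT1, chr21:29922476-29922596: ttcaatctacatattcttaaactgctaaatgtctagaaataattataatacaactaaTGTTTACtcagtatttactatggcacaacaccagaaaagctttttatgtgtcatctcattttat
The G and C content of these stretches was 34.7%, 22.3%, 38.8% and 26.4%. The letters TGTTTAC were about as common elsewhere, in 53.7% of the 143648 anchor bins of the H3K27ac set and in 52.5% of the 10976 bins that anchored a halved loop.

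A pair of promoters, one of low and one of high GC content, is printed for contrast, from 250 bases before the annotated start to the first 50 bases of the gene, on the strand of the gene and in lower case throughout, since neither holds TGTTTAC nor AGAACA, one arm of the androgen receptor's recognition sequence, on either strand. BCHE, which encodes the enzyme butyrylcholinesterase, anchored 5 of the loops, and its start region is AT-rich. BRD2, which encodes a reader of acetylated histones, anchored 6, and its start region is a CpG-rich promoter.
BCHE promoter, chr3:165555201-165555500, minus strand: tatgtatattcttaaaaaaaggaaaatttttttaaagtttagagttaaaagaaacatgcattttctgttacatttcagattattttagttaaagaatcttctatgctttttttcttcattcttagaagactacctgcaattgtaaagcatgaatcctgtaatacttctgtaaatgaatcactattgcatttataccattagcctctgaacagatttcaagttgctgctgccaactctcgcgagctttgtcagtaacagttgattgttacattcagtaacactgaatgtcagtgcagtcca
BRD2 promoter, chr6:32936121-32936420, plus strand: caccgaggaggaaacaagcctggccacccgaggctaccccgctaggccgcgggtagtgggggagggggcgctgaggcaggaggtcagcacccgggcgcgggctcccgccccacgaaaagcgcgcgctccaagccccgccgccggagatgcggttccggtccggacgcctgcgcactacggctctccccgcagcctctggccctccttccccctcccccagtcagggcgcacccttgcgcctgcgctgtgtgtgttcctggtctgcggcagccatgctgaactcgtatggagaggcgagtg
The GC content of these windows was 31.3% and 71.7%, against a median of 60.3% over 20136 protein-coding promoters. Of all these promoters, 2.81% held TGTTTAC and 12.8% held AGAACA.

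Single loops rested on few read pairs. A halved loop had a median of 13 H3K27ac read pairs at 0 m, and 5655 of the 6759 had between 10 and 19. The contact at 16 h was a median of 0.361 times that at 0 m, and 35 loops had 0 read pairs at 16 h. For 3799 loops the upper counting limit of this ratio lay below 1, and for 272 it lay below 0.5. The loop just inside the limit joined anchors at chr5:94642001-94653000 and went from 68 to 47 read pairs, a contact ratio of 0.4994, and the loop just outside it lay at chr1:8522001-8743000 and went from 13 to 9 read pairs, a ratio of 0.5002. The limit of 10 read pairs fell within a continuous range, since 2143 of the 7345 loops with 9 read pairs at 0 m were also at or below 0.5 times their starting contact.

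Over the 6759 halved loops, H3K27ac contact fell within 30 m, partly came back at 4 h, and was lowest at 16 h. In order of time from 0 m to 72 h, as in all series of 5 values given here, the mean normalized contact per halved loop was 4.57, 2.60, 3.51, 1.62 and 2.22. The other loops took the opposite course, with means of 7.32, 8.35, 7.82, 10.7 and 9.39. Of the 6759 loops, 6077 were below their 0 m contact at 30 m, 5336 were below it at 4 h, 6493 were below it at 72 h, and 376 were above it at both 30 m and 4 h. The 16 h value was the lowest of the 5 in 3710 loops, the 72 h value in 1547, the 30 m value in 1201 and the 4 h value in 301. These courses hold both the 0 m and the 16 h value that the selection used, so a low 16 h value is in part fixed by the selection.

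**Figure D1:**
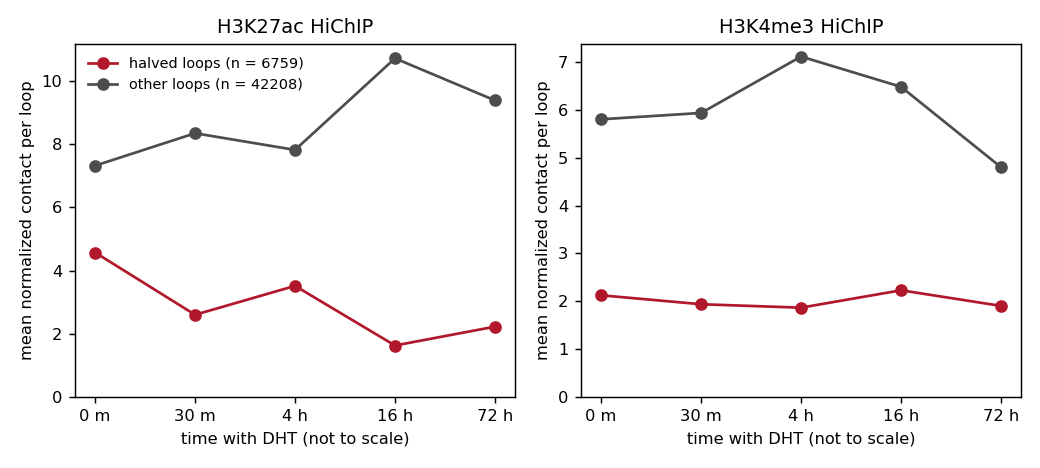
Mean normalized contact per loop (vertical axis, from 0) against time with DHT (horizontal axis, not to scale) in H3K27ac HiChIP (left) and H3K4me3 HiChIP (right), for the 6759 halved loops (red) and the 42208 other loops (grey). Each point is a mean over loops of 1 deposited value, without replicate error. In H3K27ac the red line falls from 4.57 to 1.62 at 16 h with a partial return to 3.51 at 4 h, and in H3K4me3 it stays between 1.86 and 2.23.

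Contact at or below 0.5 times the 0 m level was reached at 30 m by 3195 halved loops (47.3%), where 14.7% of all H3K27ac loops with at least 10 read pairs at 0 m reached it. At 4 h, 1720 (25.4%) were at or below this level against a background of 7.84%, and at 72 h 3856 (57.0%) against 15.4%. Among the other 42208 loops the shares at these 3 time points were 9.48%, 5.02% and 8.79%. Since the loops were picked for a high 0 m value relative to 16 h, a high 0 m count enters all of these shares.

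The step from 4 h to 72 h shares no value with the selection, and the halved loops fell over it while the other loops rose. Pooled H3K27ac contact of the halved loops changed by -0.66 on the log2 scale (interval -0.68 to -0.65), from 111163 to 57075 read pairs. The other loops changed by 0.26 (0.26 to 0.27), and all 296326 loops of the set by 0.12. Of the 4676 halved loops with at least 10 read pairs at 4 h, 1951 (41.7%, interval 40.3 to 43.2%) were at or below 0.5 times their 4 h contact at 72 h. The share was 9.12% (8.84 to 9.41%) among 39244 other loops, and 20% among all 71131 H3K27ac loops with at least 10 read pairs at 4 h. The gap was present at each depth. It was 32.7% against 7.20% for loops with 10 to 14 read pairs at 4 h, and 67.1% against 6.76% for loops with 50 or more, where 164 halved loops remained.

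**Figure D2:**
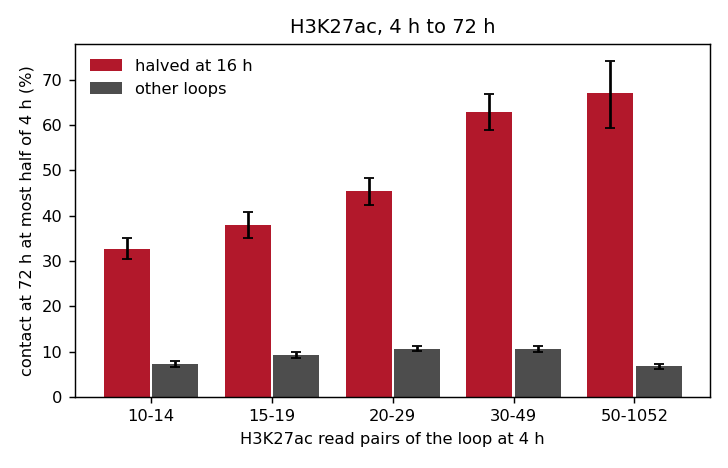
Share of loops whose H3K27ac contact at 72 h was at most 0.5 times that at 4 h (vertical axis, percent), by the read pairs of the loop at 4 h (horizontal axis), for loops halved at 16 h (red) and other loops (grey). Error bars are exact 95% binomial intervals. The red bars rise from 32.7% to 67.1% and the grey bars lie between 6.76% and 10.7%.

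Steps that start at 30 m also avoid the values of the selection. From 30 m to 72 h the halved loops changed by -0.23 (-0.24 to -0.21) and the other loops by 0.17. Of the 4122 halved loops with at least 10 read pairs at 30 m, 883 (21.4%) fell to 0.5 times or less, against 5.57% of the other loops and a background of 14.1%. From 30 m to 4 h the halved loops rose by 0.44 (0.42 to 0.45), while the other loops changed by -0.09. Contact at least doubled over this step in 462 of the 4122 (11.2%), against 4.45% of the other loops and a background of 3.52%.

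Pooled over these loops, H3K4me3 contact was low and did not follow the H3K27ac course. A halved loop had a median of 3 H3K4me3 read pairs at 0 m, and 1532 of the 6759 had 0, so most were too thin to show a course singly. The mean at 0 m was 1.04 for halved loops without a promoter and 7.31 for those with a promoter at both anchors. Over all halved loops the mean was 2.12, 1.94, 1.86, 2.23 and 1.90 at the 5 time points, where the other loops had 5.81, 5.94, 7.12, 6.48 and 4.80. From 0 m to 16 h the pooled H3K4me3 contact of the halved loops changed by 0.07 (0.05 to 0.09), that of the other loops by 0.16 and that of the whole set by 0.14. The sign of the value for the halved loops turned to -0.07 when every library was scaled to the same total, and the other loops then changed by 0.02. In both scalings the value of the halved loops was below that of the other loops. Of the 1531 halved loops with at least 10 H3K4me3 read pairs at 0 m, 87 (5.68%) were at or below 0.5 times at 16 h, close to the background of 5.5% over all 37498 such loops and above the 2.42% of the other loops.

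At the other time points H3K4me3 contact at or below 0.5 times the 0 m level was seen in 12.7% of the 1531 loops at 30 m, against 7.06% of the other loops and a background of 10.2%. It was seen in 13.1% at 4 h, against 3.75% of the other loops and a background of 5.3%. At 72 h it was seen in 11.1% (9.57 to 12.8%), against 8.44% (8.05 to 8.85%) of the other loops and a background of 12.7%. From 4 h to 72 h the halved loops changed by 0.03 in H3K4me3 and the other loops by -0.57. Over that step 356 of 3256 halved loops (10.9%) fell to 0.5 times or less, against 17.9% of the other loops and a background of 24.5%. The H3K4me3 library at 4 h was the deepest, with 10675614 read pairs on called loops, against 2153262 to 4115072 in the rest.

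The halved loops were longer than the other loops with at least 10 read pairs at 0 m, with overlapping ranges. Their median length was 35000 bp (quartiles 10000 and 95000), against 10000 bp (5000 and 40000) for the other loops. All 296326 loops of the set, most of them with fewer read pairs, had a median of 125000 bp. With 1 loop per locus the halved loops had a median of 15000 bp, and with at least 20 read pairs at 0 m it was 15000 bp against 5000 bp. The share of loops that were halved rose with each length class, from 7.46% of loops between adjacent 5 kb bins to 32.7% of the 1195 loops of 300 kb or more. The share was also taken at fixed depth. Among loops with 10 to 11 read pairs at 0 m it went from 12.1% (adjacent bins) to 38.3% (300 kb or more), and among loops with 20 or more from 3.98% to 21.4%. The share moved with depth at 0 m as well: 21.6% of loops with 10 to 11 read pairs were halved and 1.66% of loops with 50 or more, of which 63 were halved.

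**Figure D3:**
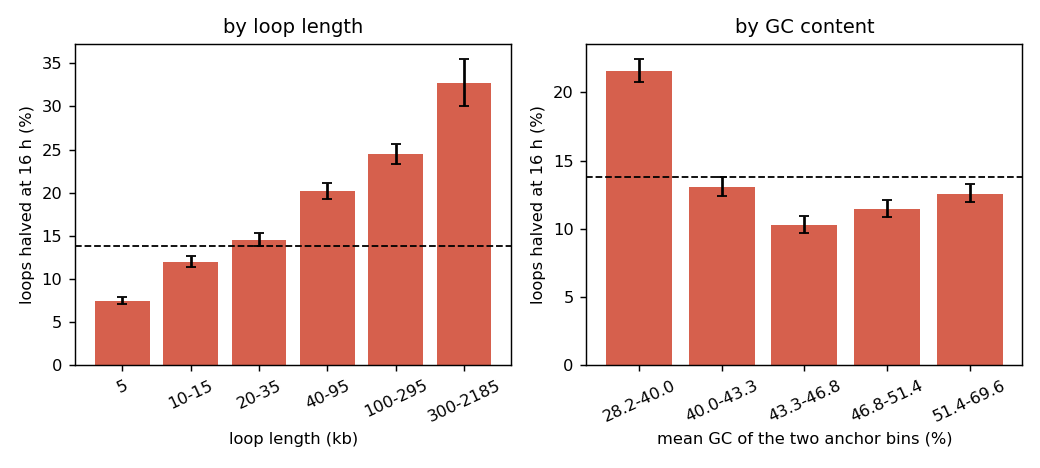
Share of the 48967 loops with at least 10 read pairs at 0 m that were halved at 16 h (vertical axis, percent), by loop length in kb (left) and by the mean GC content of both anchor bins in 5 classes of equal size (right). Error bars are exact 95% binomial intervals and the dashed line is the 13.8% of all 48967 loops. The share rises from 7.46% to 32.7% with length and is highest, 21.6%, in the class of lowest GC content.

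The anchors of the halved loops were poorer in G and C. Median GC content of both 5 kb bins was 43.2% (interval of the median 43.0 to 43.5%), against 45.2% (45.1 to 45.2%) for the other loops. In the class of lowest GC content, below 40%, 2117 of 9804 loops (21.6%) were halved, and in the 4 other classes 10.3% to 13.1%. Among loops with 20 or more read pairs at 0 m, 11.4% of those under 40% GC were halved, 4.45% of those between 40% and 50%, and 5.95% of those above.

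The course also differed with GC content. The 2117 halved loops of lowest GC content had mean H3K27ac contacts of 4.71, 1.67, 3.16, 1.61 and 1.92 from 0 m to 72 h, so the 30 m and 16 h values were alike. The 1232 halved loops of highest GC content had 4.95, 4.03, 4.55, 1.80 and 2.55, and kept most of their contact until 4 h. The other loops of lowest GC content also dipped at 30 m, from 6.50 to 4.78, whereas those of highest GC content went from 8.96 to 12.4. The fall from 4 h to 72 h was present at both ends, at -0.72 in the lowest and -0.84 in the highest class, and was -0.52 to -0.60 in the 3 between. H3K4me3 contact from 0 m to 16 h changed by 0.40 (0.34 to 0.46) in the halved loops of lowest GC content and by -0.05 (-0.08 to -0.03) in those of highest. The other loops of these classes changed by 0.41 (0.39 to 0.43) and 0.03. Contact thus moved with GC content in both groups of loops, and the part of GC content in the selection was not tested.

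Most of the loops touched no promoter. No start of a protein-coding gene lay within 2.5 kb of either anchor in 4904 loops (72.6%), against 60.8% of the other loops, 1 anchor held one in 1580 (23.4% against 30.9%) and both in 275 (4.07% against 8.27%). Both anchors were intergenic in 1768 (26.2% against 16.6%), and both lay in the same gene in 2382 (35.2% against 46.3%, and 22.8% of all 296326 loops of the set). Loops with the same pair of anchors in the H3K4me3 set were 1243 (18.4%, against 33.7% of the others). The intervals of the 2 groups did not overlap for any of these shares. They treat loops as independent, which loops that share an anchor are not. The fall in H3K27ac contact from 4 h to 72 h was -0.72 for halved loops without a promoter, -0.50 with 1 and -0.53 with both.

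Letters of the androgen receptor and forkhead sites were counted in the anchors of the halved loops and of the other loops. The full androgen response element, AGAACA followed after 3 bases by its reverse complement, reads the same on both strands and was found in an anchor bin of 21 halved loops (0.311%, interval 0.192 to 0.475%) and of 0.232% of the other loops, and the intervals overlapped. Among loops with at least 20 read pairs at 0 m it was 0.543% (0.20 to 1.18%) against 0.211%. TGTTTAC was in a bin of 77.4% (76.4 to 78.4%) against 75.7% (75.3 to 76.2%) in the other loops and 77.1% over all 296326 loops of the set, and AGAACA in a 1 kb anchor of 77.4%, against 76.4% and 77.2%. Loops that share an anchor are not independent in these shares. A match of letters is a description and not a bound site.

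Most loci held a single halved loop, and a few held many. Loops whose anchors lay in the same or adjacent 5 kb bins were joined into loci, which gave 4143 loci, of which 3179 held 1 halved loop. At the other end 48 loci held 10 or more and together 916 loops, and in 39 of these 48 the median GC content was below 40%. The 916 loops had a median length of 115000 bp and mean H3K27ac contacts of 5.62, 1.93, 3.87, 1.90 and 1.98 from 0 m to 72 h. The 3179 single loops had 4.30, 2.79, 3.598, 1.57 and 2.34. From 4 h to 72 h the loops of the 48 loci changed by -0.97 and the single loops by -0.62. The 10 loci with the most held 359 of the 6759 loops. The span of a locus, called its region here, can also hold halved loops that belong to other loci, and these are counted in the region but not in the locus. Changes of all loops of a region from 0 m to 16 h include its halved loops, so they are in part fixed by the selection.

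The first locus, at chr8:87527001-90248000, held 76 halved loops around CNBD1, a gene named for a cyclic nucleotide binding domain. Its central anchor, in a CNBD1 intron, joined 17 of them. Mean H3K27ac contact of the 76 loops was 7.15, 2.23, 5.01, 2.48 and 2.22 at the 5 time points. H3K4me3 contact was between 0.145 and 0.210 at all time points. In the region 82 of 126 loops with at least 10 read pairs were halved, and all its loops together changed by -0.99 from 0 m to 16 h.

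The second locus, at chr3:173842001-176658000, held 70 halved loops across NAALADL2, a very long gene related to the glutamate carboxypeptidases, and part of NLGN1, which encodes a synaptic adhesion protein. The intronic anchor whose sequence is printed above joined 25 of the 70, more than any other anchor. Mean H3K27ac contacts were 8.26, 2.91, 5.90, 3.08 and 2.94. In the region 71 of 160 loops with at least 10 read pairs were halved, and all its loops changed by -0.68. The NAALADL2 promoter itself lay more than 1 Mb away from that anchor and kept its summed H3K27ac contact, 53.8 at 0 m and 51.6 at 16 h, over 33 loops, with 1 of 3 that had at least 10 read pairs halved.

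Chromosome 2 held 32 halved loops at chr2:188462001-189928000, a region that holds GULP1, an adaptor for the engulfment of dying cells, and the collagen genes COL3A1 and COL5A2. Of the 32 loops, 7 touched a protein-coding promoter, and the anchor with the most of them, 11, was intergenic. Their mean H3K27ac contacts were 5.42, 1.51, 3.65, 1.78 and 1.94, while 33 of 93 loops with at least 10 read pairs in the region were halved and all its loops changed by -0.39. A further 32 loops at chr3:164927001-167068000 lay in a region with BCHE and ZBBX, where 5 touched a promoter, and had 4.33, 0.731, 2.76, 1.43 and 1.23, so the 30 m value was the lowest of the 5. Here 32 of 64 loops with at least 10 read pairs were halved, and all loops of the region changed by -0.76. The NCAM2 locus at chr21:22372001-24158000, named for a neural adhesion molecule, held 28 loops with 5.85, 1.87, 4.07, 2.09 and 1.68, with 30 of 67 such loops of the region halved, and all loops of the region changed by -0.65.

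Of the 10 loci with the most halved loops, those ranked sixth and eighth held no protein-coding gene. The one at chr10:113457001-113898000 held 27 halved loops, out of 32 loops with at least 10 read pairs in its region, and its mean H3K27ac contacts were 5.31, 2.31, 4.16, 1.08 and 1.31. All loops of this region together changed by -1.47 (-1.63 to -1.31) from 0 m to 16 h, and 488 of their 988 read pairs at 0 m were in halved loops. The one at chr10:54577001-55488000 held 24 loops with 4.75, 1.10, 2.76, 1.65 and 1.58, with 24 of 65 in the region halved, and all loops of the region changed by -0.21.

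The MYC locus at chr8:127837001-129083000, where MYC encodes a growth-promoting transcription factor, held 24 halved loops with 4.95, 1.88, 3.75, 1.94 and 1.55. In the whole region 28 of 113 loops with at least 10 read pairs were halved, and all its loops together changed by 0.04 (-0.01 to 0.10) from 0 m to 16 h. Equal library totals shift changes over this step by -0.25, which the interval does not cover. The ATP2B1 locus at chr12:89937001-91028000, with the gene of a calcium pump of the plasma membrane, held 23 loops with 5.80, 1.13, 2.73, 2.02 and 2.56, with 24 of 67 in the region halved, and all loops of the region changed by -0.42. It was the one of the 10 in which contact at 72 h was close to that at 4 h, at -0.09 (-0.35 to 0.16), whereas the other 9 changed by -0.81 to -1.67. The tenth locus, at chr21:29642001-30378000 near N6AMT1, LTN1 and RWDD2B, held 23 loops with 5.14, 2.02, 3.65, 1.65 and 2.002, with 27 of 60 in the region halved, and all loops of the region changed by -0.57.

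Loops with under 10 read pairs at 0 m were left out by the selection, and within these loci they fell too. In the CNBD1 locus 492 such loops changed by -1.19 from 0 m to 16 h, in the NAALADL2 locus 795 by -0.75, and in the BCHE locus 428 by -1.02. All 247359 such loops of the H3K27ac set changed by 0.04. Equal library totals shift all these 0 m to 16 h changes alike by -0.25, which is larger than this value. In the 25 loci with the most halved loops the weaker loops were below their 0 m contact in all 25 at 16 h and in all 25 at 30 m, but in 17 of them at 4 h. The change at 16 h lay between -1.46 and -0.24 with a median of -0.89. The loci were chosen for loops halved from 0 m to 16 h in the same libraries. The values of their weaker loops against 0 m are therefore in part fixed by that choice. From 4 h to 72 h, a step that shares no value with the choice, the weaker loops were lower in 24 of the 25. The ATP2B1 locus was the exception at 0.03.

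**Figure D4:**
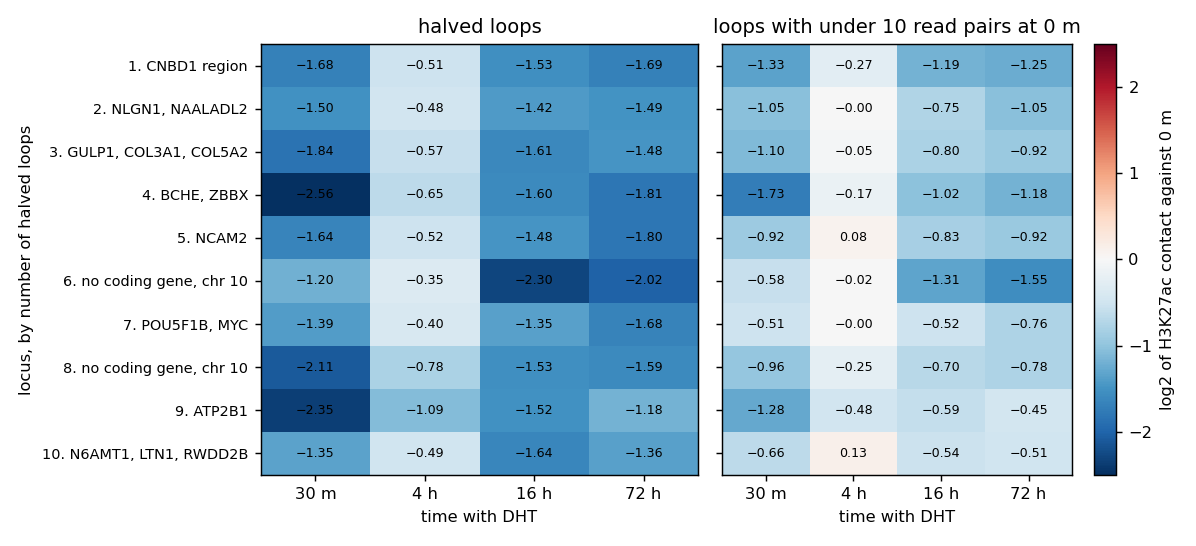
Log2 of mean H3K27ac contact against 0 m (colour and printed value) at 30 m, 4 h, 16 h and 72 h (columns) in the 10 loci with the most halved loops (rows), for the halved loops (left) and for loops with under 10 read pairs at 0 m in the same region (right). Blue is lower than 0 m. The loci were chosen for loops halved from 0 m to 16 h. The halved loops are below 0 m at every time point, and the weaker loops are below it at 30 m, 16 h and 72 h and between -0.48 and 0.13 at 4 h.

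The strongest halved loop joined 2 anchors 10 kb apart in the NAALADL2 intron, at chr3:175197001-175208000. Its H3K27ac contact was 120 (410 read pairs), 31.1, 78.0, 50.1 and 40.5 at the 5 time points, a ratio at 16 h of 0.416 (0.353 to 0.489). It had 2, 0, 6, 2 and 1 H3K4me3 read pairs. Of the 12 halved loops with the most read pairs, 3 shared the NAALADL2 anchor, 1 lay in CNBD1 and 1 in NCAM2.

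A different course was seen in a loop of 20 kb near TMEM106A, at chr17:41382001-41403000. Its contact was 49.95, 66.2, 68.2, 22.9 and 28.9, so it was above the 0 m level at 30 m and 4 h. The loop of 5 kb between PYGO2, a cofactor of Wnt signalling, and SHC1, an adaptor of receptor tyrosine kinases, went the same way with 32.3, 34.0, 38.9, 15.5 and 22.6. Its H3K4me3 contact was 38.4 at 0 m and 41.8 at 16 h. A loop of 25 kb within CPED1 followed the NAALADL2 course with 35.3, 9.90, 23.5, 17.0 and 9.74. The rest of the 12 were 1 loop each in MMP26, in THOP1, which encodes a peptidase, near ATP2B1 and near USP22, which encodes a deubiquitinase of histones.

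Halved loops were then counted at the promoters of genes listed here as repressed or induced by androgen. Over all protein-coding genes, 2092 of the 9502 with a loop of at least 10 read pairs (22.0%) had a halved loop, and 2547 of 26406 such loops (9.65%) were halved. Of 14 genes listed as androgen-repressed, 9 had any H3K27ac loop at the promoter. A loop of at least 10 read pairs was present at 5, and all 5 of these had a halved loop. These were BCHE, TMEFF2, UGT2B15, UGT2B17 and CAMK2N1, with 10 of 25 loops halved (40%). Of 26 genes listed as androgen-induced, 21 had a loop of at least 10 read pairs and 3 of them a halved one, with 3 of 78 loops (3.85%). The median change of summed promoter contact from 0 m to 16 h was -0.70 in the first list, 0.58 in the second and 0.18 over all genes with loops. These lists were drawn up from general knowledge with earlier results of these data known. Whether each listed gene, TMEFF2 among them, is repressed or induced in these cells was not checked against expression.

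BCHE had the most halved loops of the 5. The summed H3K27ac contact of its 48 loops was 105, 23.8, 82.7, 47.6 and 36.6 at the 5 time points, a change at 16 h of -1.14 (-1.39 to -0.90). From 4 h to 72 h it changed by -1.18 (-1.47 to -0.89). Of the 357 H3K27ac read pairs of BCHE at 0 m, 101 were in its halved loops, so its change at 16 h is in part fixed by the selection. Its 5 halved loops, of 10 with at least 10 read pairs, spanned 115 to 995 kb, and the strongest had 37 read pairs at 0 m and 16 at 16 h. H3K4me3 contact at this promoter was between 1.37 and 4.99.

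TMEFF2, which encodes a transmembrane protein made in prostate, had 4 loops with summed contacts of 7.05, 0.8997, 4.49, 1.49 and 0.526. Its halved loop of 190 kb had 13 read pairs at 0 m and 0 at 16 h. UGT2B15 had 70.8, 39.4, 66.4, 50.7 and 39.5 over 42 loops, and UGT2B17 had 6.17, 3.42, 5.34, 2.55 and 4.47 in a single loop. The UGT2B genes are near copies of each other, so the split of read pairs between them is uncertain. CAMK2N1, an inhibitor of a calmodulin-dependent kinase, kept its total, at 81.1 and 78.3, although 2 of its 6 loops with at least 10 read pairs were halved, over 220 and 260 kb.

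**Figure D5:**
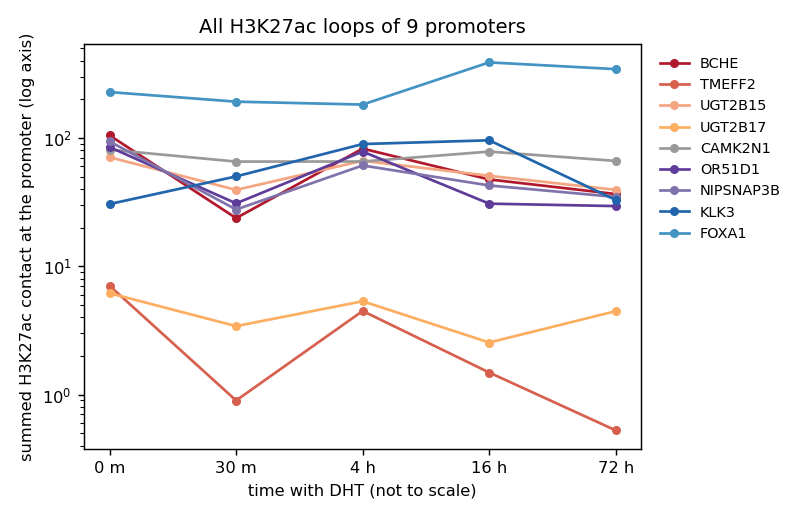
Summed H3K27ac contact of all loops at each of 9 promoters (vertical axis, log scale) against time with DHT (horizontal axis, not to scale). BCHE, OR51D1 and NIPSNAP3B fall at 30 m, return at 4 h and end at 36.6, 29.5 and 34.7 at 72 h, while KLK3 rises from 30.6 to 96.0 at 16 h and FOXA1 from 228 to 389.

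Among the induced genes the halved loops belonged to promoters whose total gained. UAP1, an enzyme that makes an activated amino sugar, rose from 67.3 to 140 in summed contact by 16 h with 1 of 3 loops of at least 10 read pairs halved. AMD1, an enzyme of polyamine synthesis, went from 147 to 169, and CAMKK2, a kinase, from 70.2 to 93.6. The AMD1 gain, 0.20 on the log2 scale, depends on the scaling, since equal library totals shift H3K27ac changes over this step by -0.25. KLK3, the marker of androgen response and of LNCaP identity, had 30.6, 50.2, 89.7, 96.0 and 32.9 in its only loop. HOXB13 and SLC45A3, further prostate markers, had loops and none halved. Of genes not expected in these cells, KRT5, KRT14, TP63, PTPRC, GATA1 and PECAM1 had no loop at the promoter in the H3K27ac set, and CD3E had 5, of which 2 had at least 10 read pairs at 0 m and 1 was halved (12 read pairs at 0 m and 7 at 16 h), with a summed contact of 8.82 at 0 m and 5.73 at 16 h.

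In the remaining lists the share of halved loops varied on both sides of that of all genes. Halved loops were found at 3 of 12 luminal transcription factor genes, with 4 of 72 loops (5.56%), at CEBPA, FOXA1 and GRHL2. FOXA1 itself rose from 228 to 389 in summed contact, with 1 of its 13 loops of at least 10 read pairs halved, over 55 kb. They were found at 2 of 13 immediate early genes, JUN and MYC, with 7 of 70 loops (10%), at 6 of 22 genes of the cell cycle and DNA replication with 7 of 44 loops (15.9%), and at 3 of 12 Wnt and Notch genes, JAG1, JAG2 and NOTCH1, with 5 of 36 (13.9%). Neuronal genes had 3 of 9 loops halved, at ENO2, EPHA7 and SEMA3C, and 1 of 5 growth factor pathway genes had any, NRP1, with 2 of 34 loops.

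The promoter with the most halved loops, 8, was that of OR51D1, an olfactory receptor gene on chromosome 11, 9 of whose loops had at least 10 read pairs, and its 20 loops summed to 84.9, 30.9, 78.4, 30.8 and 29.5 at the 5 time points. The change was -1.46 (-1.76 to -1.17) at 16 h, and -1.41 (-1.73 to -1.10) from 4 h to 72 h. Of the 289 H3K27ac read pairs of OR51D1 at 0 m, 234 were in its halved loops, so its 16 h change is in part fixed by the selection. Its locus, chr11:4627001-4848000, also holds OR51E1 and OR51E2, receptors known in prostate cells, and MMP26, a metalloproteinase gene. All 67 H3K27ac loops of this locus, the halved ones included, together changed by -1.14 (-1.28 to -0.99) from 0 m to 16 h. NIPSNAP3B had 6 halved loops among 8 with at least 10 read pairs and 94.0, 27.7, 61.1, 42.7 and 34.7 over 43 loops.

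Elsewhere the halved loops were part of a promoter whose total changed less. GULP1 had 7 halved loops among 33 with at least 10 read pairs at 0 m, and the total of its 89 loops was 361 at 0 m and 274 at 16 h. BRD2 and the HLA-DMA gene start so close together that they share the same 92 loops and cannot be told apart, with 6 of 15 loops of at least 10 read pairs halved and totals of 264 and 202. MYC had 5 among 20 such loops, with totals of 252 and 228. SLC38A1, an amino acid transporter, had 5 among 7, with 66.7 and 49.5. FTH1, the heavy chain of the iron store ferritin, had 4 among 10, with 118 and 83.9.

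Some totals fell more. ASPSCR1 went from 62.0 to 31.6, TKFC from 35.6 to 16.1, and ERAL1 with FAM222B, which share a start region, from 41.4 to 25.3. KLHDC3 went from 28.8 to 15.5 and its neighbour MEA1, which shares the same 3 halved loops, from 31.1 to 16.6. SLC43A2 went from 61.4 to 42.0. GADD45G, a gene of the stress response, was level at 142 and 142 with 4 halved loops, UTRN, a relative of dystrophin, went from 131 to 109, and FBXL22 from 73.5 to 52.4. ST3GAL1, a sialyltransferase, had 5 halved loops while its total rose from 305 to 493. Of the 2092 genes with any halved loop, 1744 had 1 and 273 had 2.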

How the data were processed

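HiChIP of H3K27ac and H3K4me3 in LNCaP cells was deposited by the authors as contact signal, 1 value per loop, mark and time point. Per the methods and the submitters' processing notes, reads were trimmed with Trim Galore 0.5.0 and aligned to hg19 with HiC-Pro 3.1.0 and Bowtie2, loops were called in 5 kb bins at a q-value under 0.01 on the merged read pairs of a mark, and the signal was scaled by TMM among its time points. All values (100%, within 0.01 of a whole number) were multiples of the value of 1 read pair, so read pairs were recovered by division. Loops in both sets were counted once per set. Read pairs on loops lay between 2475168 and 4308555 per H3K27ac time point and between 2153262 and 10675614 for H3K4me3.

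Samples were grouped by mark and time from their titles. The halved loops, the gene lists and the comparisons were chosen with earlier results of these data known. Pooled log2 changes compare summed contact with exact conditional intervals, shares have exact binomial intervals and medians have order-statistic intervals, all at 95% and for counting error only. No replicate values were available to a test. Promoters are 2.5 kb on either side of protein-coding starts in Gencode release 44 on GRCh37, where 0 loops ran past a chromosome end. Named genes are the 20 with the most halved loops, those at the 12 strongest halved loops, those of the 10 largest loci, list genes with a halved loop, and markers of LNCaP and other cells. OR51E1, OR51E2, MMP26, POU2AF3 and NRG3 were chosen after their values were seen. The scaling, read-pair and length limits, promoter window, GC window and motif were varied. The steps were tested on simulated data, with Python 3.11.15, numpy 2.4.6, pandas 2.3.3, scipy 1.17.1 and matplotlib 3.10.9. The simulated loops had higher contact than most halved loops, so wrong calls among loops with 10 to 19 read pairs were not assessed. Loops of the H3K4me3 set alone were not described.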

Additional observations from a re-analysis of the deposited data

Results flagged for a closer look

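In 2 of 3 steps that share no value with the selection, the 2 marks moved in opposite directions at the halved loops. From 30 m to 4 h pooled H3K27ac contact changed by 0.44 on the log2 scale and H3K4me3 contact by -0.055. From 4 h to 72 h H3K27ac contact changed by -0.66 and H3K4me3 contact by 0.029. In the third step, from 30 m to 72 h, both fell, H3K27ac contact by 0.23 and H3K4me3 contact by 0.026. Equal library totals were not tried for these H3K4me3 steps. That scaling turned the H3K4me3 change of the halved loops from 0 m to 16 h from 0.069 to -0.066. The signs of the small H3K4me3 changes, and with them the count of steps, may therefore depend on the scaling. The marks also moved in opposite directions at the other loops, by -0.094 and 0.26 from 30 m to 4 h, by 0.26 and -0.57 from 4 h to 72 h, and by 0.17 and -0.31 from 30 m to 72 h, for H3K27ac and H3K4me3 in this order. The difference between the marks was not tested, since each value rests on 1 deposited value per loop and time point, and the H3K4me3 steps that start or end at 4 h use the deepest library.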

How the results depend on the processing

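The number of halved loops, 6759, was 10045 when read pairs were scaled to the same total in each library, which lowers H3K27ac changes from 0 m to 16 h by 0.25 on the log2 scale. It was 31096 with at least 5 read pairs at 0 m, 1104 with at least 20, 2646 for a fall to 0.333 times or less, 4308 for loops of 20 kb or more, and 3799 with an upper counting limit below 1. With equal totals, single-loop medians, at least 20 read pairs, loops of 20 kb or more and 1 loop per locus, in this order, the H3K4me3 change from 0 m to 16 h was -0.066, 0.040, 0.052, 0.014 and 0.091. The H3K27ac change from 30 m to 72 h was -0.31, -0.19, -0.34, -0.14 and -0.25, and that from 4 h to 72 h was -0.76, -0.64, -0.86, -0.52 and -0.63. The share of halved loops that fell again from 4 h to 72 h was 46.4% with equal totals, 52.9% with at least 20 read pairs at 4 h and 38.7% with 1 loop per locus. Median length was 15000 bp with at least 20 read pairs and with 1 loop per locus. Median GC content was 43.8% with at least 20 read pairs. The share with a promoter was 17.2% in a window of 1 kb on either side, 31.7% over the 5 kb bins, 40.8% with all annotated genes and 26.4% with at least 20 read pairs. The share in the H3K4me3 set was 32.9% when anchors 1 bin away counted and 21.6% with at least 20 read pairs. The share with an androgen response element was 0.543% with at least 20 read pairs (0.211% of other loops), and AGAACA alone was in a 1 kb anchor of 77.4%. Other loops changed by 0.16 to 0.33 from 4 h to 72 h where the scaling, read-pair and length limits were varied, and by 0.09 as a single-loop median. Settings for the step from 4 h to 72 h were chosen after seeing the data. No paired analysis was possible because the deposited tables hold a single value at each time point and no replicate numbers. Depth limits single loops, most of which had 10 to 19 read pairs at 0 m.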

Other observations

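Chromosomes differed in the share of loops that were halved at 16 h. It was 18.04% on chromosome 21 (164 of 909 loops with at least 10 read pairs at 0 m) and 17.4% on chromosome 8, against 10.7% on chromosome 16. On the GC-rich chromosomes 16, 17, 19 and 22 the halved loops kept more of their contact at 30 m. Their mean H3K27ac contacts went from 4.91, 4.99, 4.97 and 4.67 at 0 m to 3.73, 3.90, 4.27 and 3.48. The means fell from 4.70 to 2.23 on chromosome 21 and from 4.18 to 1.83 on chromosome 13. The other loops differed likewise. Their means rose from 7.93, 8.66, 8.92 and 8.26 to 10.5, 11.3, 13.0 and 10.8 on chromosomes 16, 17, 19 and 22. On chromosomes 21 and 13 they fell from 7.27 to 6.86 and from 6.17 to 5.82.

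Weaker loops that the selection left out were also lower at 16 h in several further loci. These loci were found through loops halved over the same step, so the values are in part fixed by that choice. Around POU2AF3, a cofactor gene of the POU family on chromosome 11, 18 of 21 loops with at least 10 read pairs at 0 m were halved, and the 16 weaker loops changed by -1.27 from 0 m to 16 h. In the region with NRG3, the gene of a neuregulin growth factor, on chromosome 10, 29 of 35 loops with at least 10 read pairs were halved, 23 of them in 1 locus, and the 129 weaker loops of the region changed by -1.46.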
